A study of Mus musculus with 8 samples.

Results

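Histone messenger RNA was described in bone-marrow-derived macrophages, which are macrophages grown from mouse marrow with the growth factor M-CSF. The members are rows of the count table chosen by gene symbol, with earlier results of these data known. Symbols starting with Hist1h, Hist2h, Hist3h or Hist4h gave 69 replication-dependent genes, and symbols starting with H1f, H2af or H3f gave 17 variant genes, 86 of 26667 rows in all. A filter on low counts left 22 members, 12 replication-dependent and 10 variant, among 12507 genes tested. The other 64 members are given by their counts. WT cultures were compared with Dnmt3a KO cultures, in which the gene of a de novo DNA methyltransferase is disrupted, as the label states. Both genotypes carry the strain name C57BL/6 and were sampled between day 8 and day 10 of differentiation, with 4 poly(A) libraries each. The labels give no allele, deleting Cre line, age or sex, and leave it unsaid whether each library is from its own mouse. The p-values therefore measure the spread between libraries, which may be technical. Where 4 values of a genotype are listed, they stand in the order of replicates 1 to 4.

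Histones wrap DNA into nucleosomes, and the linker histone H1 binds where the DNA enters and leaves. Replication-dependent genes lie in clusters, are transcribed in S phase, and mostly make messages that end in a conserved stem-loop without a poly(A) tail. Variant genes mostly lie outside these clusters, are transcribed outside S phase too, and mostly make polyadenylated messages. Libraries selected for poly(A), as here, therefore sample the first class poorly, and cells that leave the cell cycle are known to go on making variants.

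Library totals ran from 12614006 to 28502631 counts. Dnmt3a had a level of 161 ± 10.0 CPM in WT against 34.4 ± 3.70 CPM in KO (SD, n = 4 each; CPM are counts rescaled to a common library size with TMM factors), with no overlap between genotypes. Macrophage markers were high in all libraries. Their sum over 8 genes ran from 11120 to 12303 CPM in WT and from 11729.6 to 15597 CPM in KO, and 0 of the 8 passed the edgeR test. Csf1r, which encodes the receptor for M-CSF, averaged 2109 ± 99.5 and 2063 ± 243 CPM. Lyz2, the lysozyme gene, was at 5619 ± 539.6 and 7698 ± 1145 CPM, and Fcgr1, an Fc receptor gene, at 101.2 ± 34.1 and 156 ± 38.7 CPM (unadjusted p 0.00361 and 0.0280, edgeR adjusted p 0.112 and 0.311). The summed markers of B and T cells reached at most 3.94 CPM and those of erythroid cells 0.64 CPM. The neutrophil and granulocyte precursor markers summed to between 272 and 406 CPM in WT and between 702 and 847 CPM in KO. Of the 9 tested, 5 rose by edgeR, against 1.22% of all genes tested. WT replicate 1 stood apart, with a median correlation of 0.962 with its own group against 0.986 to 0.990 in the other 7 libraries. The library names number the WT libraries before the KO libraries, so library order and genotype cannot be told apart. In bulk libraries, fewer cells of a type and less RNA per cell cannot be told apart.

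Most replication-dependent genes had few or no counts in these libraries. With poly(A) selection and sequence shared between genes, few counts need not mean that a gene was silent. Of the 69, 8 had no count at all and 23, those included, had fewer than 10 counts over the 8 libraries. Together the 57 that failed the filter held 554 counts in WT and 446 in KO. Hist1h1c, the gene of the linker histone H1.2, alone made up 73.1 ± 2.74% of the class's CPM in WT and 75.2 ± 2.45% in KO (SD, n = 4 each). It lies on chromosome 13 from 23738808 to 23740367 (mm10). The 12 tested members held 97.1 ± 1.27% of the class in WT and 97.8 ± 0.53% in KO. The class came to 255.8 ± 19.5 CPM in WT and 313 ± 42.8 CPM in KO, and the 17 variant genes to 726 ± 156 and 690.1 ± 115 CPM.

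Per kilobase of the longest annotated transcript, a few genes stood far above the rest in these poly(A) libraries. Hist1h1c was highest, with 119.8 ± 9.66 CPM per kilobase in WT against 151.6 ± 25.4 in KO (SD, n = 4 each). Then followed H2afj with 89.3 and 69.0, H2afy with 65.4 and 65.9, H2afx with 57.0 and 49.0, and H1f0 with 53.6 and 64.6 CPM per kilobase. The order of H2afj, H2afy, H2afx and H1f0 differs between the genotypes. These 4 variant genes held 84.7% of its counts in WT and 85.7% in KO. H1fx was far lower, at 8.78 and 2.83 CPM per kilobase.

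The annotated transcript ends differed between the tested members and the rest. The stem-loop was searched on the sense strand of the annotated transcripts as GGNNCTNTNNAGNNCC, with the inner N pairs required to be complementary. It was found in 44 of 69 replication-dependent genes, against 0.338% of 21877 protein-coding genes. In 22 of the 44 the annotated transcript ran on for at least 100 bases past the stem-loop, and 10 of these 22 passed the filter. In the other 22 the transcript ended sooner, and 0 of these passed. Median counts over the 8 libraries were 47 in the first group and 12 in the second. The same groups differed in other ways: median transcript length was 1255 against 483.5 bases, median GC content 50.25% against 60.25%, and the median share of 50-base words also found in other genes 23.35% against 63.1%. The part of length, GC content and shared sequence in the counts was not tested. Of the 69 transcript models, 29 have a length that is a multiple of 3, as coding sequence alone would have. By chance about 1 in 3 lengths would be, and in each group of 22 it was 6. Whether some annotated ends are incomplete was not tested. The stem-loops of 5 tested members are shown with that of a member that had 0 counts, with the motif in capitals. They come from the mm10 annotation of GENCODE.
Hist1h1c: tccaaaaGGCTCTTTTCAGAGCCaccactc
Hist3h2a: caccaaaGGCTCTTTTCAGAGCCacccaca
Hist1h4i: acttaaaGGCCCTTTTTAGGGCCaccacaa
Hist2h3c1: ccacaaaGGCTCTTTTCAGAGCCaccacag
Hist2h3c2: ccacaaaGGCTCTTTTCAGAGCCaccacag
Hist1h2ao: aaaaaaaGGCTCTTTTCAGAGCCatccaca
The same 16 letters stand in Hist1h1c, with 29300 counts and 840 further bases, and in Hist1h2ao, with 0 counts and 31 further bases. Of the 50-base words of Hist1h2ao 93.5% occur in other genes, so its 0 counts need not mean that it was silent. Hist2h3c1 and Hist2h3c2 share all 30 bases shown.

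**Figure D1:**
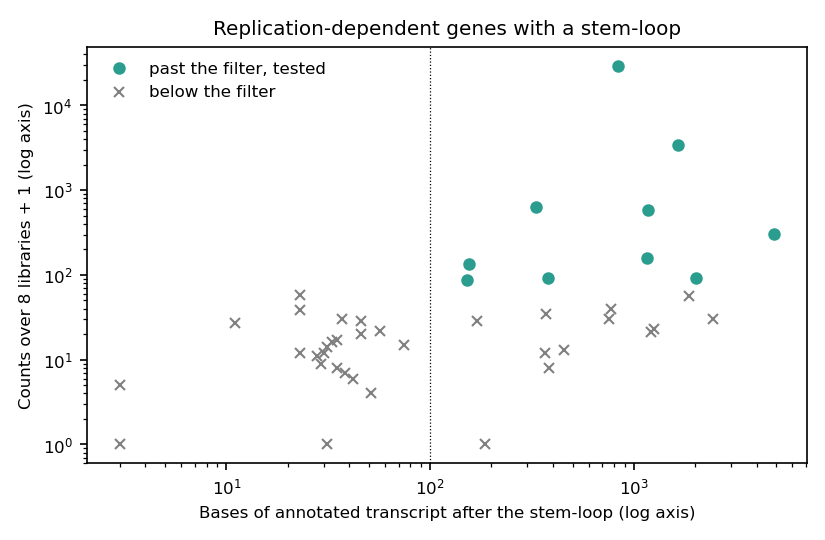
Counts over the 8 libraries (plus 1, log axis) of each replication-dependent gene with a stem-loop, against the number of annotated bases after the stem-loop (log axis). The 10 tested genes (filled circles) all lie right of the dotted line at 100 bases, with Hist1h1c highest at 29300 counts.

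H1fx was the only tested histone gene that passed the test between genotypes. Of the 22 tested members 0 rose and 1 fell in Dnmt3a KO cultures, and 21 did not pass the test (edgeR, adjusted p under 0.05 over all genes tested). Over all 12507 genes 1.61% were called, 1.22% higher and 0.392% lower, and no statement about the members as a group rests on a count of 1. The member that fell was H1fx, a linker histone variant. Groups did not overlap in 1 of 22 members, H1fx again, against 9.41% of all genes (4.28% lower and 5.13% higher in KO). An unadjusted p under 0.05 was reached by 3 of 22 members, against 12.7% of all genes.

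The 2 classes lay on opposite sides of 0 by their medians. Among replication-dependent members 9 of 12 had a positive log2 fold change (KO minus WT), with a median of 0.28 and a range from -0.57 to 1.56. Among variant members 4 of 10 were positive, with a median of -0.23 and a range from -1.64 to 0.44. The median over all tested genes was -0.02, and 46.9% were positive. The variant median depended on WT replicate 1 and was 0.026 without that library. The replication-dependent median was 0.17 without KO replicate 3 and 0.19 without WT replicate 3. When all genes with any count were fitted it was -0.25, but over a larger set that took in the members with few counts. It is therefore not a change of sign of the same 12 members.

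**Figure D2:**
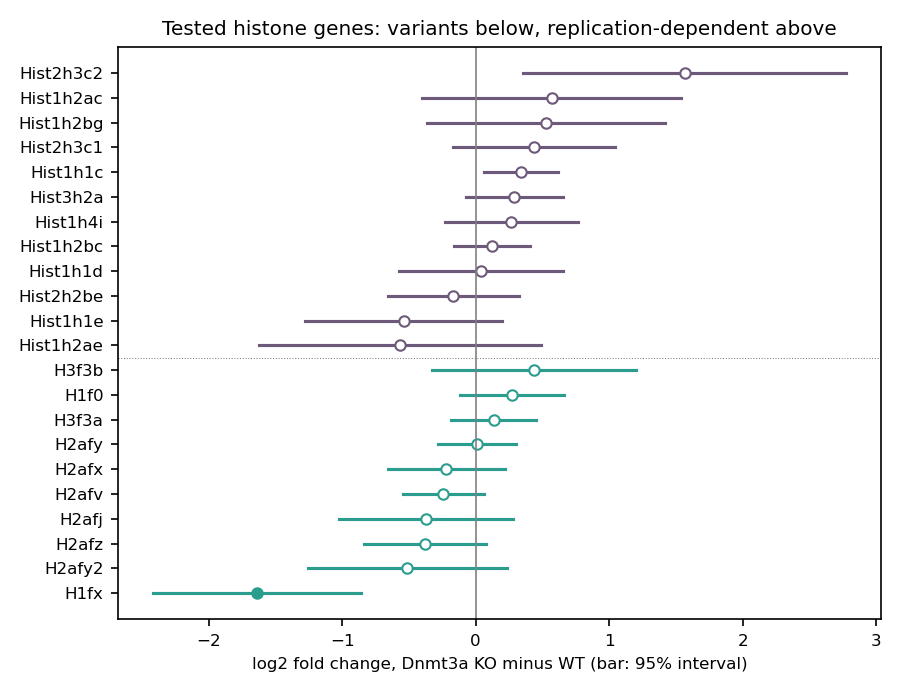
Log2 fold change (KO minus WT) of the 22 tested members with its 95% interval. The filled circle is H1fx, the only member called, and the open circles are members that did not pass the test.

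Summed levels overlapped between the genotypes in both classes. The replication-dependent sum was 276, 234, 268 and 245 CPM in WT and 284, 270.6, 360 and 339 CPM in KO. The genotypes overlapped because WT replicate 1 lay above KO replicate 2, while KO replicates 3 and 4 were highest. Without Hist1h1c the sum was 83.4, 65.1, 63.5 and 63.7 CPM in WT and 73.1, 75.4, 81.4 and 78.1 CPM in KO. Here WT replicate 1 was the highest of all libraries and the other 3 WT libraries lay below every KO library. By histone type, the mean sum in KO over that in WT was 1.26 for H1, 1.20 for H2A, 1.03 for H2B, 1.29 for H3 and 1.18 for H4, and the genotypes overlapped for each type. The variant sum was 958, 618, 660.2 and 668 CPM in WT and 720.4, 522, 735 and 783 CPM in KO, with WT replicate 1 far above the other WT libraries.

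**Figure D3:**
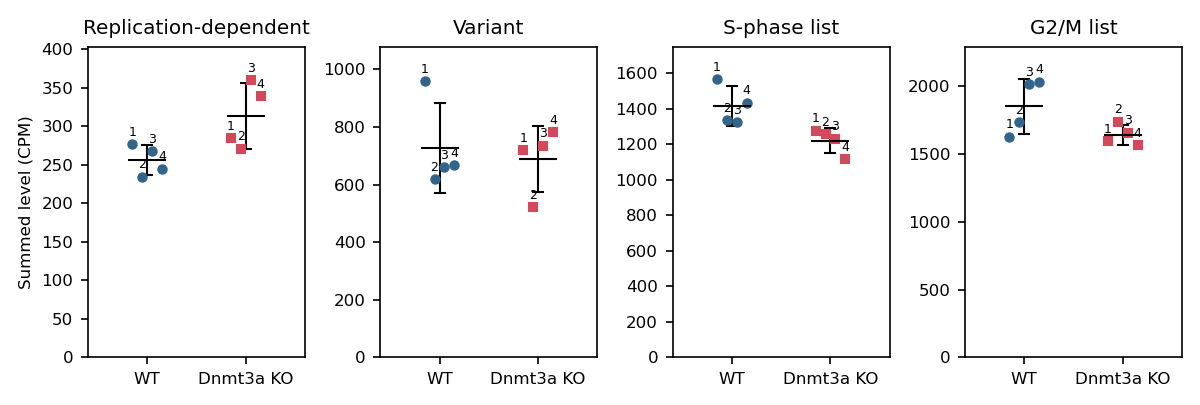
Summed CPM per library of both histone classes and of the S-phase and G2/M gene lists, with the replicate number beside each point and the mean and SD of each genotype (n = 4). The S-phase sums do not overlap between genotypes, and in the other 3 panels they do.

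Among linker histone genes, H1fx was lower in every KO library. H1fx encodes H1.X (H1.10 in newer naming), a replication-independent linker histone that, like other H1 proteins, binds linker DNA. It lies on chromosome 6 from 87980421 to 87981637, on the minus strand. The gene was at 16.8, 7.88, 9.30 and 8.78 CPM in WT, with 264, 124, 156 and 254 counts. In KO it was at 2.63, 1.61, 4.18 and 5.35 CPM, with 35, 33, 53 and 94 counts. The highest KO library lay below the lowest WT library, and WT replicate 1 was the highest by a wide margin. The mean went from 10.7 ± 4.11 to 3.44 ± 1.65 CPM (SD, n = 4 each), 3.11-fold lower in the fit. The log2 fold change was -1.64 ± 0.36 (SE) with a 95% interval from -2.42 to -0.86 and an edgeR adjusted p of 0.0462, just inside the threshold. Without WT replicate 1 it was -1.34 with an edgeR adjusted p of 0.0181. The call was lost on leaving out any of WT replicates 2 to 4 or KO replicates 1 to 3, at edgeR adjusted p from 0.0626 to 0.151, with the log2 fold change between -1.76 and -1.38. The summed level of the neutrophil and granulocyte precursor markers was also apart by genotype, higher in all KO libraries. Of its 9 tested genes 9 had a positive log2 fold change, against 46.9% of all genes tested. In 6 of the 9 the genotypes did not overlap, against 9.41% of all genes tested, while Camp and Mpo were among those that did. The part of these markers in the H1fx difference was not tested.

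The authors' deposited table lists the same gene with an adjusted p of 4.01e-04. Its log2 fold change of 1.63 has the opposite sign because that table gives WT relative to KO, as its value of 2.22 for Dnmt3a shows. The authors' deposited table lists 59 members, of which 1 has an adjusted p under 0.05.

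The start of H1fx is dense in CpG, the dinucleotide that Dnmt3a methylates. The 300-base windows around the starts of H1fx and of the 2 most abundant linker genes, Hist1h1c and H1f0, are shown from RefSeq (GRCm38.p6), from 250 bases before to 50 after the start, with CG in capitals. The H1fx window is chr6:87981433-87981732 on the minus strand, that of H1f0 is chr15:79027962-79028261 and that of Hist1h1c is chr13:23738557-23738856, both on the plus strand. RefSeq and GENCODE place the starts of H1fx and H1f0 differently. GENCODE starts H1fx at 87981637, inside its window, and H1f0 at 79028450, past the end of its window.
H1fx: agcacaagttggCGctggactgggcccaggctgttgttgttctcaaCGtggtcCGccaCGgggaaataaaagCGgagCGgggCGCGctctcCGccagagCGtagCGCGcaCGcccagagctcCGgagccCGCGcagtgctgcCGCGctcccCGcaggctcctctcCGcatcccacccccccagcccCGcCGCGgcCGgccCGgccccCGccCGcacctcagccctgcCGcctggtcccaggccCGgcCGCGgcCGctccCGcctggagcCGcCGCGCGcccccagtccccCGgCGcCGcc
H1f0: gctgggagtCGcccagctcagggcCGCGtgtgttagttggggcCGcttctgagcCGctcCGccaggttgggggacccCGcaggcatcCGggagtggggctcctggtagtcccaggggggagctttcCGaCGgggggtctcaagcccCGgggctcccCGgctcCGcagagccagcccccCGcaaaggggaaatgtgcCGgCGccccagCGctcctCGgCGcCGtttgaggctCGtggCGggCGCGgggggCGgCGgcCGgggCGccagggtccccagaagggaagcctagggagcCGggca
Hist1h1c: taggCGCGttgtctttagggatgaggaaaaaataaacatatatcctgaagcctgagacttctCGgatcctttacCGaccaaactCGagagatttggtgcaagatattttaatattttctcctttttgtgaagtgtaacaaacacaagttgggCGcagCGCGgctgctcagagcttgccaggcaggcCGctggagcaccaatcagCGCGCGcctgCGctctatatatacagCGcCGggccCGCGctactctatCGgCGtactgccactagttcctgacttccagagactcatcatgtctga
H1fx has 40 CG in this window, H1f0 29 and Hist1h1c 19. The median over 32851 promoter windows of this length is 7, and 3.91% of them hold at least as many as H1fx. Among histone genes this density is not particular to H1fx: H3f3a has 39, H2afy 37 and H2afz 34, none of which passed the test, and Hist2h2aa1 and Hist2h2aa2, which were not tested, have 41 and 36. Methylation was not measured in the data used here.

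A non-coding gene beside H1fx also had a negative log2 fold change. Gm5577 is annotated on the opposite strand, overlaps H1fx in GENCODE and shares 14% of the 50-base words of the H1fx transcript. It had 17, 33, 16 and 28 counts in WT and 3, 17, 4 and 4 in KO. Its level went from 1.27 ± 0.55 to 0.40 ± 0.29 CPM without overlap between genotypes, with a log2 fold change of -1.56 ± 0.49 (SE) and an edgeR adjusted p of 0.175. The labels name the NEBNext Ultra RNA kit, whose non-directional form does not record strand, and how reads were counted is not stated there. Where the annotated genes overlap, reads therefore cannot be assigned to either gene with certainty. In RefSeq, Gm5577 begins at 87981683, beyond the start of H1fx, and the annotation used for counting is not given in the sources used here. Of the 10 nearest listed genes around H1fx, between 87788853 and 88223256, 9 were tested and 0 called by edgeR. Besides Gm5577, only Gata2 among these 9 had an unadjusted p under 0.05. This gene encodes a transcription factor of blood progenitors and was at 8.73 ± 0.94 and 4.32 ± 1.5 CPM (edgeR adjusted p 0.0549). Rab7 and Rpn1, which lie between the pair, were at log2 fold changes of 0.13 and -0.14 with edgeR adjusted p of 0.602 and 0.648.

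**Figure D4:**
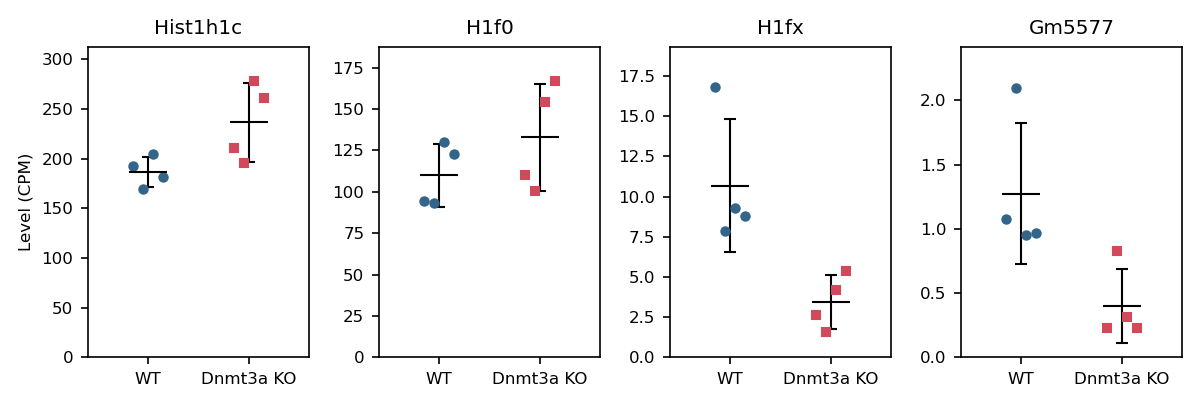
CPM per library of the linker histone genes Hist1h1c, H1f0 and H1fx and of Gm5577, with the mean and SD of each genotype (n = 4). The KO points of H1fx and Gm5577 all lie under their WT points, while the genotypes overlap for Hist1h1c and H1f0.

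The more abundant linker genes had positive log2 fold changes and did not pass the test. Hist1h1c was at 193, 169, 204 and 181 CPM in WT and at 211, 195, 279 and 261 CPM in KO. Only KO replicate 2 fell within the WT range. The log2 fold change was 0.34 ± 0.13 (SE; 95% interval 0.06 to 0.62), with an unadjusted p of 0.0208 and an edgeR adjusted p of 0.273. H1f0, the gene of H1.0 that accumulates in differentiated, non-dividing cells, was at 94.3, 93.2, 129.8 and 123 CPM in WT. In KO it was at 109.9, 100.8, 154 and 167 CPM, with KO replicates 3 and 4 above all WT libraries and the others inside the WT range. Its log2 fold change was 0.27 ± 0.18 (SE), with an edgeR adjusted p of 0.578. Hist1h1d and Hist1h1e, the genes of H1.3 and H1.4, were at 2.16 and 1.33 CPM in WT and 2.24 and 0.90 CPM in KO, with edgeR adjusted p of 0.966 and 0.556. Hist1h1a and Hist1h1b, of H1.1 and H1.5, had 25 and 31 counts in WT and 20 and 21 in KO and were not tested.

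Per kilobase of the longest annotated transcript, Hist1h1c and H1f0 made up most of the linker histone message sampled in these poly(A) libraries. Hist1h1c took 65.1 ± 1.90% of it in WT and 68.8 ± 2.24% in KO, and H1f0 took 29.0 ± 3.45% and 29.0 ± 1.94% (SD, n = 4 each). H1fx took 7.39%, 3.99%, 3.76% and 3.90% in WT and 1.12%, 0.74%, 1.32% and 1.73% in KO. These shares did not overlap for H1fx and overlapped for the other 9 linker genes. Messages that end at the stem-loop are sampled poorly here, so these are shares of the message sampled. Hist1h1d is divided by an annotated transcript of 7425 bases, which lowers its share. A share of message is not a share of protein.

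Several H2A variants were among the histone genes with the highest levels in these libraries, and no H2A variant passed the test. H2afy encodes macroH2A1, an H2A with a large carboxy-terminal macrodomain. It was at 321, 230.3, 246 and 254 CPM in WT and 272, 215, 268 and 304 CPM in KO. These ranges overlapped, and the log2 fold change was 0.01 ± 0.13 (SE) with a 95% interval from -0.28 to 0.30. H2afj, of a mammalian H2A variant, was at 287, 139, 115 and 113 CPM in WT and 155, 79.8, 135 and 136 CPM in KO. WT replicate 1 was by far the highest and KO replicate 2 the lowest. Its log2 fold change was -0.37 ± 0.30 (SE; edgeR adjusted p 0.658) and turned to 0.05 without WT replicate 1. H2afx, of H2A.X, which is phosphorylated at DNA breaks, was at 113, 61.6, 66.2 and 74.4 CPM in WT and 72.7, 49.0, 78.3 and 71.1 CPM in KO. WT replicate 1 was again highest and KO replicate 2 lowest, and the log2 fold change of -0.22 became 0.01 without WT replicate 1. The annotated transcript of H2afx holds the stem-loop, followed by 822 bases. A message that ends at the stem-loop would be sampled poorly here.

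H2A.Z, the variant found at promoters, is encoded by H2afz and H2afv. H2afz averaged 20.6 ± 6.53 CPM in WT against 15.8 ± 2.65 CPM in KO, with WT replicate 1 at 30.3 CPM and the other WT libraries between 16.8 and 18.1. H2afv was at 31.0 ± 4.40 and 26.3 ± 3.23 CPM. Their log2 fold changes were -0.38 and -0.24 with edgeR adjusted p of 0.50 and 0.520. Of the 50-base words of the H2afz transcript 69.6% occur in transcripts of other genes, so its level is uncertain, while 0% of those of H2afv do. H2afy2, of macroH2A2, had 85 counts in WT and 50 in KO, with a log2 fold change of -0.51 ± 0.34 (standard error; edgeR adjusted p 0.587).

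H3.3, the H3 variant laid down outside replication, is encoded by H3f3a and H3f3b. H3f3a was at 54.7, 38.8, 43.8 and 44.1 CPM in WT and 55.6, 38.2, 52.3 and 53.2 CPM in KO. The ranges nearly coincided, and the log2 fold change of 0.14 ± 0.14 (SE) had an edgeR adjusted p of 0.746. Of its transcript's 50-base words 30.3% are shared with other genes. H3f3b had 84 counts in WT and 99 in KO, between 0.76 and 1.95 CPM per library, which is low for a gene that is widely expressed in mouse tissues. Its log2 fold change was 0.44 ± 0.35 (SE; edgeR adjusted p 0.660). Of its transcript's words 8.4% are shared, and no gene overlaps it in GENCODE. How its reads were assigned is not given in the sources used here.

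Other replication-dependent members of the core histones were low and did not pass the test. Hist3h2a, an H2A gene of the small cluster on chromosome 11, was at 31.2, 19.1, 18.6 and 20.1 CPM in WT and 27.3, 27.0, 27.7 and 26.6 CPM in KO. WT replicate 1 lay above all KO libraries and the other WT libraries below them. With all libraries the log2 fold change was 0.29 ± 0.17 (SE; edgeR adjusted p 0.521). Without WT replicate 1 it was 0.50, with an edgeR adjusted p of 0.0120. Trim17 overlaps it on the same strand, and 31.5% of its 50-base words are shared with other genes.

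Hist1h2bc, an H2B gene, was at 21.2, 20.1, 16.3 and 17.8 CPM in WT and 18, 21.1, 21.8 and 21.0 CPM in KO. The ranges overlapped, with a log2 fold change of 0.12 ± 0.13 (SE) and an edgeR adjusted p of 0.744. Hist2h2be, another H2B gene with a long polyadenylated form, was at 4.32, 7.18, 9.36 and 6.19 CPM in WT and 5.79, 6.82, 5.83 and 5.58 CPM in KO. All KO values lay inside the WT range, with a log2 fold change of -0.17 ± 0.22 (standard error; edgeR adjusted p 0.804). Hist1h4i, the single H4 gene tested, had a log2 fold change of 0.27 ± 0.23 (standard error; edgeR adjusted p 0.675).

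The H3 gene Hist2h3c2 had the highest log2 fold change of the 22 tested members and rested on few counts. It had 1, 3, 11 and 12 counts in WT and 8, 14, 18 and 25 in KO. As CPM these were 0.064, 0.19, 0.66 and 0.41 against 0.60, 0.68, 1.42 and 1.42, with KO replicate 1 inside the WT range. The log2 fold change was 1.56 ± 0.55 (SE; 95% interval 0.35 to 2.78), with an unadjusted p of 0.0160 and an edgeR adjusted p of 0.242. Hist2h3c1, which encodes the same H3.2 protein, was at 3.51 ± 1.09 and 4.76 ± 1.07 CPM (log2 fold change 0.44, edgeR adjusted p 0.563). Of the 50-base words of Hist2h3c2, 63.5% occur in other genes, and for Hist2h3c1 100% do, so reads cannot be divided with certainty between such copies. The remaining tested members, Hist1h2bg, Hist1h2ae and Hist1h2ac, had between 42 and 69 counts per genotype apart from Hist1h2ae with 31 in KO, and edgeR adjusted p from 0.647 to 0.677.

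**Figure D5:**
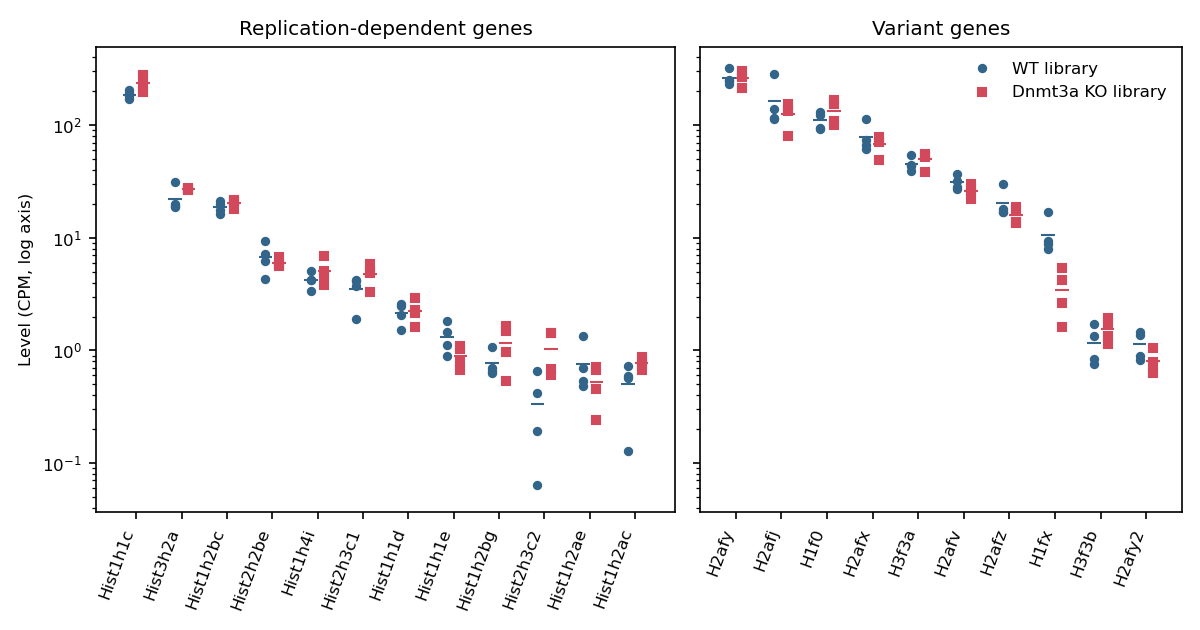
CPM per library (log axis) of the 12 replication-dependent and 10 variant members tested, ordered by mean level, with short lines at the genotype means. WT and KO points overlap for all genes except H1fx.

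Sparse members are stated by their counts over 4 libraries per genotype. Of the variants below the filter, H2afy3 had 35 counts in WT and 15 in KO, H3f3c 22 and 13, the oocyte linker gene H1foo 12 and 17, the spermatid linker gene H1fnt 0 and 4, H2afb1 0 and 2, and H2afb2-ps 1 and 0. H2afb3-ps had no count. H2afy3 and H3f3c are annotated as processed pseudogenes. H2afy3 overlaps Pvt1, and 73.8% of the 50-base words of H3f3c occur in other genes, so their counts need not come from these loci. The replication-dependent genes without a count were Hist1h1t, Hist1h2aa and Hist1h2ba, which are known from testis, and Hist1h2af, Hist1h2ao, Hist1h2ap, Hist1h2br and Hist1h3h. A count of 0 allows up to 3 counts, or 0.0391 CPM over the WT libraries and 0.0465 CPM over the KO libraries, for counting error only. Most words of Hist1h2ap (93.1%), Hist1h2af (94.0%), Hist1h3h (93.9%) and Hist1h2br (88.5%) also occur in other genes. As for Hist1h2ao, their 0 counts need not mean that they were silent. Hist1h2ak had 29 counts in WT, 23 of them in replicate 1, and 5 in KO. Hist1h2al, annotated as a processed pseudogene away from the cluster on chromosome 13, had 13 counts in WT and 86 in KO, 81 of them in replicate 4. Hist2h2bb had 9 and 11 counts and Hist2h4 15 and 7.

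Most genes of the cell cycle had negative log2 fold changes, and 0 of them passed the test. Of 28 S-phase genes tested 0 rose and 0 fell by edgeR, 26 had a negative log2 fold change, and the median was -0.17. Their summed level was 1567, 1335, 1323 and 1434 CPM in WT and 1277, 1257, 1231 and 1117 CPM in KO, without overlap. KO replicates 3 and 4, with the highest replication-dependent sums, had the lowest S-phase sums. In WT, replicate 1 had the highest S-phase sum and also the highest replication-dependent sum, at 276 CPM. Hist1h1c makes up most of the replication-dependent sum. A relation between the S-phase and replication-dependent sums was not tested. The best-covered members were Pcna, the sliding clamp gene, at 177 ± 15.8 and 145 ± 4.51 CPM, Mcm6, a helicase subunit gene, at 156 ± 5.24 and 140.4 ± 9.12 CPM, and Rrm1. Their edgeR adjusted p were 0.198, 0.526 and 0.590. Of 20 G2/M genes 0 rose and 0 fell (edgeR), with 19 negative and a median of -0.18. Mki67, a proliferation marker gene, was at 347 ± 75.6 and 293 ± 31.0 CPM (edgeR adjusted p 0.566). In the S-phase and G2/M lists 6 and 2 genes reached an unadjusted p under 0.05, against 12.7% of all genes tested. Of all 12507 genes tested, 6640 had a negative log2 fold change. By DESeq2, 0 genes of either list were called, and with a trend in transcript length and GC content removed, 2 of each list were, where 448 of all genes were called against 201 without that step.

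Genes that make and process histone messages did not pass the test. Of 18 genes of histone transcription and 3′ end processing 0 rose and 0 fell by edgeR or DESeq2, 0 reached an unadjusted p under 0.05, and the median log2 fold change was -0.07. The list holds Slbp, which encodes the protein that binds the stem-loop, and Npat, the coactivator gene of the clusters. The lowest edgeR adjusted p was that of Sympk, a cleavage scaffold gene, at 0.480.

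Of 33 histone chaperone and exchange genes 1 rose and 0 fell by edgeR, and 22 had a negative log2 fold change, with a median of -0.10. Over all 12507 genes 1.22% were called higher and 0.392% lower, 6640 were negative and the median was -0.02. Groups did not overlap in 7 of the 33, against 9.41% of all genes. The summed level of the list was 3211 to 3394 CPM in WT and 3038 to 3191 CPM in KO, without overlap. The gene that rose was Daxx, whose protein places H3.3 together with Atrx. It was at 78.8, 78.7, 75.4 and 78.4 CPM in WT and 120.5, 116, 97.7 and 110.1 CPM in KO. All KO libraries lay above all WT libraries, and the WT libraries were tightly grouped. The log2 fold change was 0.51 ± 0.09 (SE) with an edgeR adjusted p of 0.0184. The call was lost on leaving out any 1 library other than WT replicate 1 or KO replicate 3, at edgeR adjusted p from 0.0548 to 0.0751. Chaf1a, a subunit gene of the assembly factor CAF-1 that deposits new H3 and H4 in S phase, was at 45.8 ± 13.2 and 31.5 ± 3.30 CPM (edgeR adjusted p 0.20). Cenpa, the centromeric H3 gene, which the symbol rule does not take, was at 75.2 ± 7.84 and 65.1 ± 5.62 CPM (edgeR adjusted p 0.468).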

How the data were processed

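Poly(A) RNA of 8 cultures (4 WT, 4 Dnmt3a KO) was sequenced. The authors deposited raw counts per gene, and a table with a mean signal of normalised counts, log2 fold changes with errors, a test score and p-values. The submitters' processing notes name mm10, STAR 2.7.0a, Trimmomatic 0.39 and featureCounts. For counting settings, annotation and read length the entry is "not given in the sources used here". Counts were tested with edgeR 4.0.16 (R 4.3.3; filterByExpr with a minimum count of 10, TMM scaling, quasi-likelihood test on genotype, Benjamini-Hochberg adjustment over 12507 genes, threshold 0.05). Every variant member was named, and of the other members those called, the 8 highest, those with an unadjusted p under 0.05 and those with an outlying library. Members and lists were chosen with earlier results of these data known. DESeq2 1.42.0, limma 3.58.1, other scalings and filters, a replicate block and leaving out each library were alternatives. Removal of a length and GC trend was added after seeing the data. The procedure was tested on simulated data. Stem-loops came from GENCODE transcripts and promoters from RefSeq (73 members matched). Library totals ran from 12614006 to 28502631 counts, and replicate pairs all differed by more than sampling noise.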

Additional observations from a re-analysis of the deposited data

Results flagged for a closer look

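In 100 groups of 4 libraries (46 members with at least 20 counts and 4 sums, each in both genotypes), 12 had a library whose gap to the nearest other, divided by the range, was above 0.829. For independent groups of normally distributed values, chance gives about 1 in 20. The groups here share libraries, the sums hold flagged genes, and some counts are sparse. The comparison with 1 in 20 is therefore no test. Of the 12 flagged groups, 9 were WT replicate 1. Its level was 16.78 CPM for H1fx against 7.881 to 9.296 in the other WT libraries, 286.9 for H2afj against 112.8 to 139.4, 30.32 for H2afz against 16.8 to 18.11, and 31.21 for Hist3h2a against 18.59 to 20.09. It was 1.462 CPM for Hist1h2ak against 0.06915 to 0.1271 and 0.6992 for Hist2h4 against 0.03458 to 0.1271. Its summed level was 83.4 CPM for replication-dependent genes without Hist1h1c against 63.46 to 65.08, 13.22 for those not tested against 5.148 to 5.839, and 957.9 for the variants against 618.2 to 668.4. KO replicate 4 had 4.612 CPM of Hist1h2al against 0.07519 to 0.1577. WT replicate 4 had 1.072 CPM of Hist1h2bg against 0.6357 to 0.6991. WT replicate 3 had 0.5363 CPM of Hist2h2bb, where the other WT libraries were at 0.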

How the results depend on the processing

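Over 369 values of members under alternatives, 350 kept their direction and side of the threshold, 6 lost the call (all H1fx without 1 library), 1 gained it (Hist3h2a without WT replicate 1) and 12 changed sign. H1fx ranged from -1.96 to -1.34 on the log2 scale, with adjusted p from 0.000417 by DESeq2 to 0.151 by edgeR without KO replicate 1. All genes called numbered 201, 399 with no filter, 551 by DESeq2, 448 after removal of the trend with length and GC, and 103 to 484 with 1 library left out. Leaving out 1 library gave 0 to 1 called members in each class, 0 to 1 G2/M genes and 0 to 2 chaperone genes; removing the length and GC trend gave 2 S-phase and 2 G2/M genes. The replication-dependent median was 0.17 to 0.30 with 1 library left out, and the variant median was then -0.31 to 0.026. With no filter the replication-dependent median was -0.25 and with the stricter filter 0.19, each over another set of members. Those fits held 77 and 17 histone members of both classes, against 22 in the main fit. Sign changes were H2afj at 0.048 and H2afx at 0.0051 without WT replicate 1 (lowest with 1 library left out -0.52 and -0.32), Hist2h2be at 0.026 without WT replicate 3 (lowest -0.32), Hist1h1d at -0.091 with the trend removed and -0.11 to 0.18 with 1 library left out, and H2afy at -0.0010 with no scaling factors and -0.063 to 0.12 with 1 library left out. The cause of these changes was not tested. Same-numbered WT and KO libraries correlated at -0.019 to 0.284, over 0.1 in 2 of 4 pairs. These mixed values do not settle whether the numbers pair the libraries. With the replicate block 260 genes were called, H1fx at -1.65 (edgeR adjusted p 0.0369). Members with few counts limit what can be seen: 57 of 69 replication-dependent genes were too low to test.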
